A study of Mus musculus with 24 samples.

Results

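Transcripts of 10 neuropeptide genes known from sensory neurons (Calca, Calcb, Tac1, Tac2, Sst, Adcyap1, Gal, Npy, Nppb and Vip) were followed in nerve fibres of the mouse from birth to 5 weeks. Members were found by the gene name in the array files, which gave 16 probes for the 10 genes among 56605 gene probes. Each gene was read by its brightest probe over all arrays. A probe was tested where every one of the 3 arrays in some group read it well above background, which held for 9 of the 10 genes but not for Vip, and for 17730 genes in all. In short, no member passed the test between afferent and efferent fibres at birth. At each later age 5 members passed as higher in afferent fibres, where 2.23% to 2.49% of all probes did. Calca and Calcb were among them at 1 week only, Tac2 and Sst at 3 and 5 weeks only. In the main fit, though, no member passed the test of a change in the difference between fibres since birth. The count at 1 week fell to as few as 2 when 1 array was left out, and that at 3 weeks to 4. From birth to 5 weeks 7 members fell in efferent fibres, where 14.5% of all probes fell.

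The samples were afferent fibres (AN) of the dorsal roots and efferent fibres (EN) of the ventral roots from C57BL/6 mice at birth (P0) and at 1 (1W), 3 (3W) and 5 (5W) weeks. No group carried a treatment or an engineered allele. Each of the 8 groups had 3 arrays, numbered 1 to 3, and RNA of a root holds the axons together with Schwann cells and other cells of the root. The methods describe fibres of several animals collected at each age, so an array is not known to stand for 1 animal, and the p values measure only the spread between these samples, which may be technical. In such bulk samples fewer cells of a type and less RNA per cell cannot be told apart.

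Neuropeptides are made as precursors in the cell body, cut by convertases while they are packed into dense-core granules, and released to act mostly on G protein-coupled receptors. In small sensory neurons of the dorsal root ganglion, CGRP and substance P are released from peripheral endings, where they act on vessels and immune cells, and in the dorsal horn, where they take part in the transmission of pain. Somatostatin, galanin and NPY mostly act through inhibitory receptors, PACAP acts mainly through receptors that raise cyclic AMP, and natriuretic peptide B marks a small group of itch-related sensory neurons. Several of the same peptides are also made by neurons of the spinal cord and by sympathetic neurons.

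Between 55.1% and 71.7% of gene spots were well above background on an array. The third 3W AN array stood apart and is reported with and without: its mean level over 12 sensory neuron marker genes was 12.28, against 8.59 and 8.80 on the other 3W AN arrays, and its quality weight was 0.216, the lowest of the 24. Schwann cell markers were high everywhere, with mean levels of 15.37 to 16.95 over 8 genes. Levels are given throughout as the deposited log2 values, in which 1 unit is a doubling, and levels of different probes are not compared with each other.

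Sequences are shown for the parts of 2 precursors that a probe reads directly and for the start regions of 4 members. A second Tac1 probe (mm9, chromosome 6, 7507722 to 7509136, plus strand, across an intron) lies in coding sequence, and its capitals are the codons of the tachykinin core with the glycine and lysine that follow it. The Npy probe (mm9, chromosome 6, 49773743 to 49777505, plus strand, across an intron) ends in the codons of the final tyrosine of the mature peptide and of the cleavage and amidation signal after it, again in capitals.
Tac1 probe: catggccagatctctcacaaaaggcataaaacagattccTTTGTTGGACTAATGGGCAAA
Npy probe: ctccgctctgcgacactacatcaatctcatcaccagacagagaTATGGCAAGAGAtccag

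Upstream sequence from RefSeq (GRCm38.p6) was at hand for 9 members, all but Calcb. The letters TGACG, or CGTCA on the other strand, form the core of the cyclic AMP response element, and the window from 250 bases before to 50 after the start held them in 6 of these 9 genes (Calca, Tac1, Sst, Adcyap1, Gal and Vip), compared with 23.0% of 27025 genes. The full palindrome TGACGTCA, which contains the core on both strands, was found in Sst alone of the 9, compared with 2.03% of all genes. The 100 bases before the start are shown for 4 members with the core in capitals, and a match of letters is a description of the sequence only.
Sst, chr16:23890845-23890944, minus strand: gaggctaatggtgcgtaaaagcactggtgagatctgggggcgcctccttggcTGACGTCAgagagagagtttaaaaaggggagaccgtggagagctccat
Calca, chr7:114636358-114636457, minus strand: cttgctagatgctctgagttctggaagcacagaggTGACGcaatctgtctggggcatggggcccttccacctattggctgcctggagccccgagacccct
Tac1, chr6:7554961-7555060, plus strand: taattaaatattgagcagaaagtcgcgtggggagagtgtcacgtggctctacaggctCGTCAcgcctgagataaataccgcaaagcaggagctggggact
Adcyap1, chr17:93198917-93199016, plus strand: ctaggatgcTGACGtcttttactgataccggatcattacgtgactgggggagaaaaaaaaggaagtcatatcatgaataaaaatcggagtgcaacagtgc

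Calca encodes calcitonin and, through other exons, alpha-CGRP, and its brightest probe reads the CGRP form (mm9, chromosome 7, 121775204 to 121775263, minus strand). At P0 the Calca levels were 13.25, 14.86 and 13.13 in AN and 12.95, 12.97 and 13.77 in EN, so the groups overlapped. At 1W they were 14.76, 14.92 and 15.05 in AN against 9.06, 9.30 and 10.28 in EN, a wide gap with no overlap. At 3W the AN arrays read 11.32, 10.75 and, on the array set apart, 16.50, while EN read 9.73, 8.45 and 9.77. At 5W the AN arrays spread from 13.66 over 12.33 to 8.64, and the lowest of them was below all 3 EN arrays (9.21, 9.94 and 10.41). The second Calca probe, in the exon of the calcitonin form, was dim. It read 5.31, 5.65 and 5.47 in AN at 1W, where no EN array was well above background, and AN was there at least 1.45-fold higher (adjusted p = 0.255).

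Calcb, the gene of beta-CGRP, followed Calca array by array, with a Pearson r of 0.973 over the 24 arrays as a description, since the arrays share groups and ages. Its 1W levels were 9.77, 9.81 and 10.23 in AN and 5.07, 5.28 and 6.03 in EN. At 3W AN read 5.48, 5.34 and 10.39 and at 5W 8.19, 6.50 and 2.68. At both of these ages no EN array was well above background for Calcb.

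Tac1 encodes substance P and neurokinin A. Its levels at P0 were 11.90, 12.83 and 11.14 in AN and 11.29, 11.38 and 12.14 in EN. At 1W AN read 12.71, 13.23 and 12.71 and EN 6.73, 7.73 and 8.91. At 3W AN read 10.07, 10.20 and 14.23 against 7.47, 7.41 and 7.82 in EN, and at 5W 11.20, 11.35 and 7.90 against 6.41, 7.27 and 7.16. From 1W on every AN array thus lay above every EN array. The coding probe of Tac1 printed above gave AN minus EN differences of 5.502 at 1W (adjusted p = 0.00565) and 4.14 at 3W (0.0221), and at 5W, where no EN array was well above background on it, AN was at least 6.68-fold higher (0.0277).

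Adcyap1, the gene of PACAP, also overlapped at P0, with 9.40, 10.12 and 8.69 in AN and 9.02, 8.61 and 9.41 in EN. AN then read 9.62, 9.99 and 9.97 at 1W, 7.78, 7.90 and 10.50 at 3W and 8.46, 9.44 and 6.80 at 5W. EN read 4.78, 5.25 and 6.74 at 1W, 5.00, 3.74 and 5.35 at 3W and 4.64, 4.76 and 3.89 at 5W. No later AN array was as low as any EN array of its age. On a second Adcyap1 probe no EN array was well above background from 1W on, and AN was at least 11.4-fold higher at 1W, 4.52-fold at 3W (2.16-fold without the third 3W AN array) and 2.18-fold at 5W, where 2 of 3 AN arrays were above background.

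**Figure D1:**
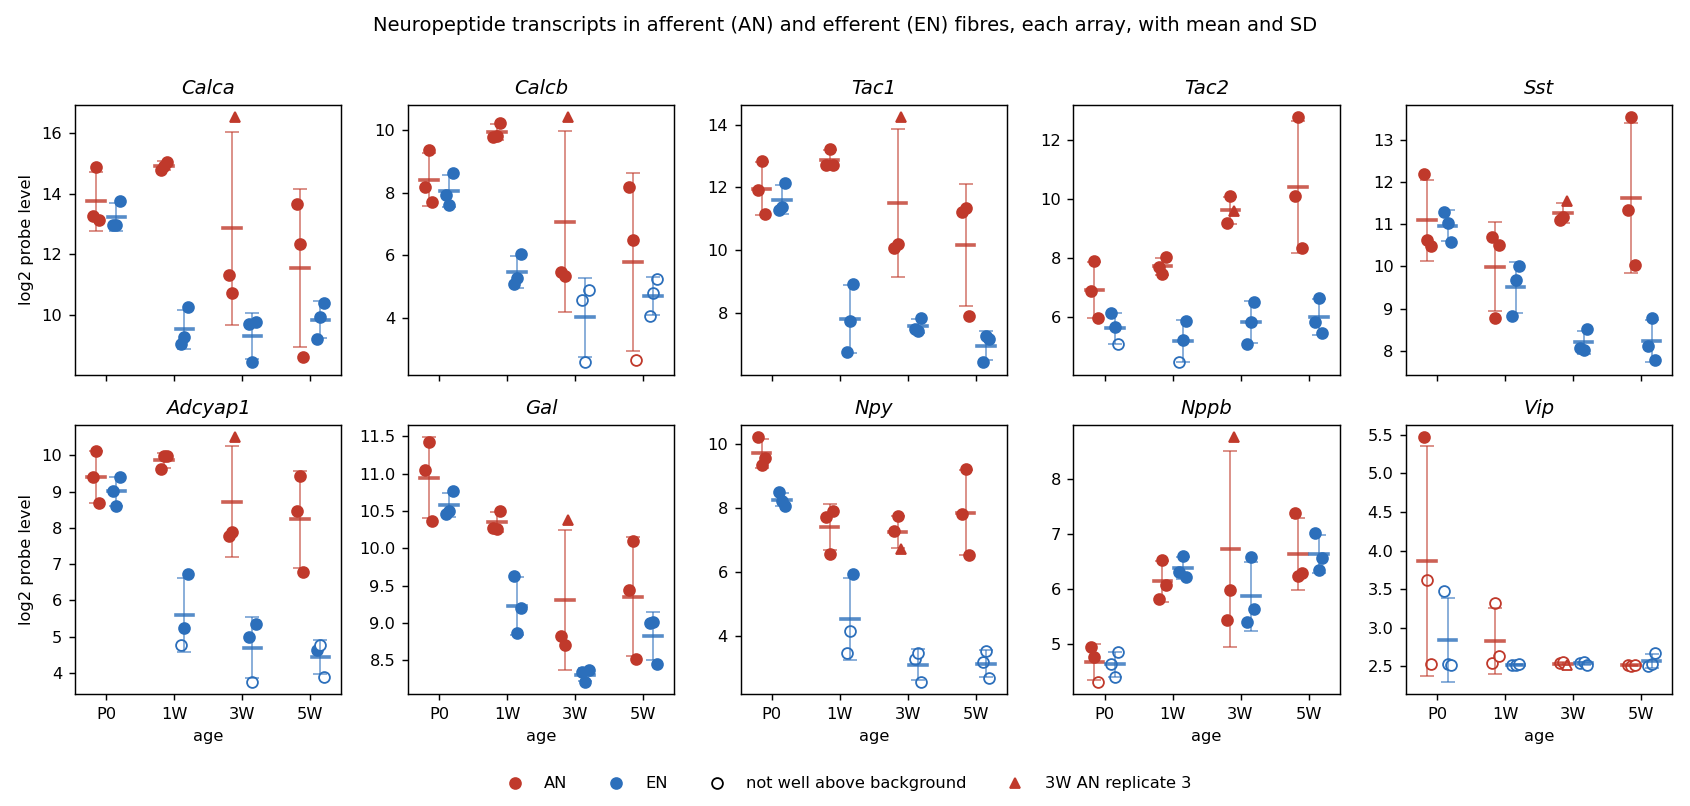
Log2 level of each of the 10 genes (brightest probe) on every array, by age; AN in red and EN in blue, with the mean (bar) and SD of 3 arrays. Open symbols are not well above background and the triangle is the third 3W AN array, which was the highest 3W AN array for Calca (16.50), Calcb (10.39), Tac1 (14.23), Adcyap1 (10.50), Sst (11.54), Gal (10.39) and Nppb (8.77) but not for Npy (6.72) or Tac2 (9.60).

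Tac2, the gene of neurokinin B, took another course. In AN it read 6.89, 7.90 and 5.98 at P0, 7.71, 7.46 and 8.04 at 1W, 9.19, 10.10 and 9.60 at 3W and 10.12, 12.77 and 8.33 at 5W. EN stayed between 4.47 and 6.67 at all ages. The third 3W AN array lay between the other 3W AN arrays for Tac2, and the highest value came from the second 5W AN array.

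Sst, the gene of somatostatin, overlapped between fibres at P0 (12.19, 10.61 and 10.47 in AN, 11.29, 11.03 and 10.56 in EN) and at 1W (10.697, 8.77 and 10.51 in AN, 8.83, 9.68 and 9.998 in EN). At 3W AN read 11.10, 11.17 and 11.54 and EN 8.07, 8.02 and 8.52. At 5W AN read 11.32, 13.52 and 10.02 and EN 8.12, 8.78 and 7.78. AN and EN were apart at both of these ages, and the second 5W AN array was the highest of all.

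Npy was the only member whose AN arrays all exceeded the EN arrays at P0, with 10.21, 9.35 and 9.56 against 8.49, 8.23 and 8.07. The same held for 6.75% of all tested probes. At 1W it read 7.73, 6.57 and 7.89 in AN and 3.47, 4.14 and 5.94 in EN. AN held 7.28, 7.74 and 6.72 at 3W and 7.83, 9.21 and 6.53 at 5W. At 3W and 5W no EN array was well above background for Npy, with readings of 2.55 to 3.53, so that only a lower bound of the difference is measured.

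Gal, the gene of galanin, differed less between fibres. AN read 11.06, 11.43 and 10.36 at P0, 10.28, 10.26 and 10.50 at 1W, 8.83, 8.70 and 10.39 at 3W and 9.44, 10.10 and 8.51 at 5W. EN read 10.46, 10.51 and 10.77 at P0, 9.63, 8.86 and 9.20 at 1W, 8.34, 8.20 and 8.37 at 3W and 9.00, 9.01 and 8.45 at 5W. AN lay above EN without overlap at 1W and 3W only.

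Nppb, the gene of natriuretic peptide B, overlapped between AN and EN at every age on its brightest probe. In AN it read 4.94, 4.76 and 4.30 at P0 and 7.39, 6.24 and 6.29 at 5W, with 8.77 on the third 3W AN array and 5.44 and 5.98 on the others of that group. In EN it read 4.64, 4.397 and 4.85 at P0, where none was well above background, and 7.02, 6.34 and 6.56 at 5W. A second Nppb probe was not well above background on any EN array and read 9.69 on the third 3W AN array, so the course in EN rests on 1 probe. In AN the second probe was above background on 1 array at 1W, 2 at 3W and 1 at 5W. All its AN arrays read above EN at P0 (3.199 to 4.229 against 2.675 to 3.195) and at 1W (3.34 to 4.75 against 2.64 to 2.90). These readings were mostly below background, and the second probe was not tested. Vip was well above background on 1 of the 24 arrays, the first P0 AN array at 5.47, and was not tested.

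AN was compared with EN at each age in limma over all tested probes, and a gene was called at a Benjamini-Hochberg adjusted p below 0.05 with a fold above 2. At P0 none of the 9 members was called, where 0.327% of all probes were. At an unadjusted p below 0.05 with the same fold it was 1 member (1.12% of all probes), Npy (log2 difference 1.45 ± 0.60 SE, adjusted p = 0.52). The median difference of the 9 members was 0.37, compared with 0.01 over all tested probes.

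At 1W 5 members were higher in AN, where 2.41% of all probes were called higher. Calca exceeded EN by 5.36 ± 1.19 (SE, log2, adjusted p = 0.0132), Tac1 by 5.09 ± 0.93 (0.0052), Calcb by 4.48 ± 1.19 (0.0397), Adcyap1 by 4.27 ± 0.71 (0.00334) and Npy by 2.88 ± 0.60 (0.00945). For Npy only 1 of 3 EN arrays was above background, so the size of its difference depends on dim values. Tac2 differed by 2.54 ± 0.76 and missed the threshold (adjusted p = 0.0717), and passed it with the replicate pairs as a block (0.0158). Gal (1.12, 0.156), Sst (0.49, 0.864) and Nppb (-0.24, 0.93) were not called. AN and EN arrays did not overlap for 7 of 9 members, against 12% of all probes with AN above EN. Calcb lost its call without any 1 of the 6 arrays of that age. The count of 5 fell to 2 (Tac1 and Adcyap1) without the third 1W AN array or without the first 1W EN array, and to 3 without the second 1W EN array.

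At 3W 5 members were higher in AN again (2.23% of all probes), and Sst and Tac2 were among them while Calca and Calcb were not. Whether any member differed more at 3W than at 1W was not tested. Adcyap1 exceeded EN by 4.03 ± 0.71 (adjusted p = 0.00208), Tac1 by 3.93 ± 0.93 (0.0168), Tac2 by 3.81 ± 0.76 (0.00561) and Sst by 3.07 ± 0.67 (0.0102), and Npy was at least 5.18-fold higher (0.000366). Calca (3.54, 0.0897) and Calcb (at least 4.58-fold, 0.153) were not called. Calca was called with array quality weights (2.05, 0.0254), without the second 3W AN array (4.59, 0.0376) and without the third 5W AN array. Without the third 3W AN array the Calca difference was 1.72 (0.404), the Calcb bound fell to 1.45-fold (0.576), and Tac1 lost its call at 2.56 (0.084), as it did without any 1 of the EN arrays. Tac2 (3.82, 0.0201), Sst (2.93, 0.0424), Adcyap1 (3.14, 0.0118) and Npy (at least 6.22-fold, 0.000918) kept theirs.

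At 5W the called members were the same 5 as at 3W (2.49% of all probes were called higher). Tac2 exceeded EN by 4.41 ± 0.76 (adjusted p = 0.00138), Adcyap1 by 3.80 ± 0.71 (0.00261), Sst by 3.39 ± 0.67 (0.00397) and Tac1 by 3.20 ± 0.93 (0.0446), and Npy was at least 7.03-fold higher (8.83e-05). For Adcyap1 only 1 of 3 EN arrays was above background, so the size of its difference depends on dim values. Calca differed by 1.69 (0.453) and Calcb was at least 1.68-fold higher (0.668), with 2 of 3 AN arrays above background. Both were called once the third 3W and the third 5W AN arrays were left out together, an alternative chosen after seeing the data, at 3.14 for Calca (0.00139). Tac1, near the threshold, lost its call in most of the 24 fits that left out 1 array, with the lowest difference without the second 5W AN array (2.61, 0.195). With Npy and Calcb at their bounds the median difference of the 9 members was 3.07 at 3W and 2.81 at 5W, while that of all probes was -0.03 at both ages.

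**Figure D2:**
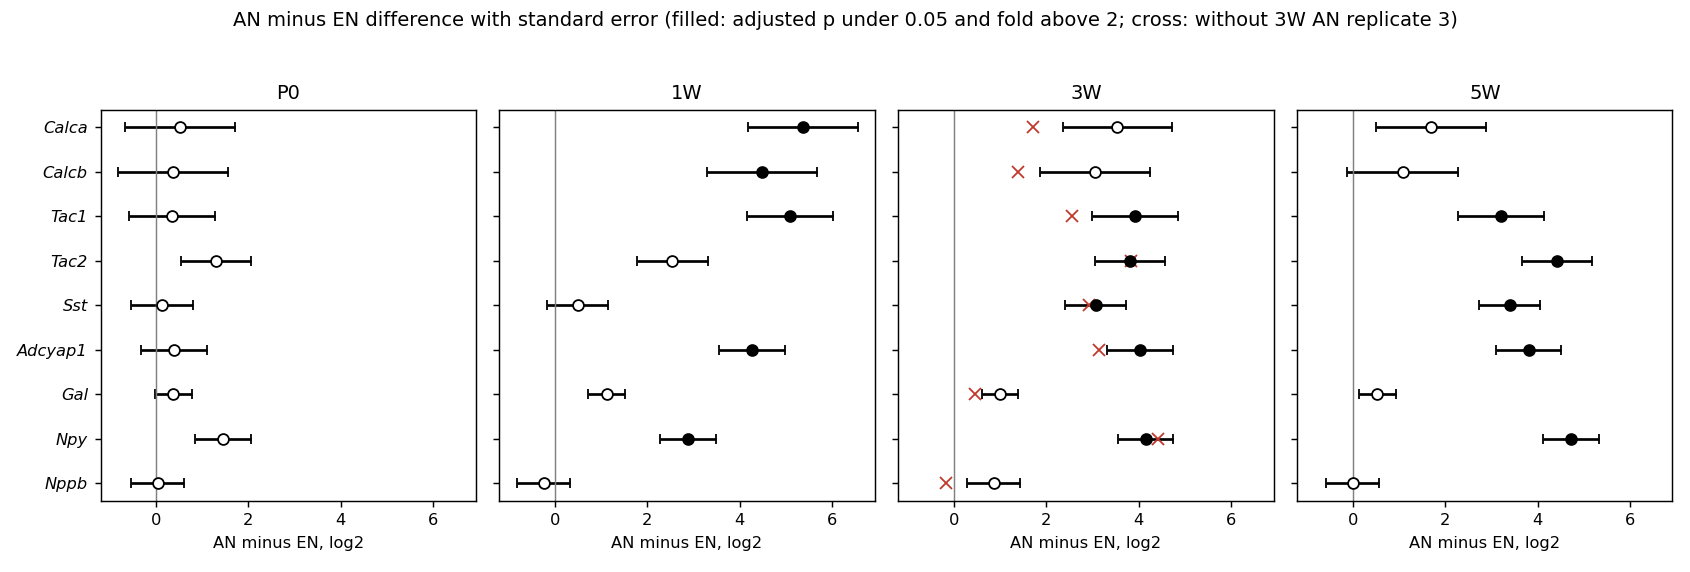
Fitted AN minus EN difference (log2) with its standard error for the 9 tested members at each age; filled symbols were called, open ones were not, and red crosses at 3W show the value without the third 3W AN array. The cross lies well to the left for Calca (1.72 against 3.54) and Calcb and on the point for Tac2 (3.82 against 3.81); for Npy and Calcb at 3W and 5W, EN was not well above background and the fitted difference is no bound.

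Most of these transcripts fell with age in EN. From P0 to 5W 7 members fell and 1 rose in EN, where 14.5% of all probes fell and 15.4% rose. Tac1 fell by 4.65 ± 0.93 (SE, log2, adjusted p = 0.000355), Adcyap1 fell by 4.58 ± 0.71 (2.53e-05), Calca fell by 3.38 ± 1.19 (0.0224), Sst fell by 2.73 ± 0.67 (0.002) and Gal fell by 1.76 ± 0.40 (0.00109). Npy was at least 9.32-fold lower (9.59e-07) and Calcb at least 8.07-fold lower (0.024). Tac2 was the exception among the neuronal peptides, with a change of 0.36 (0.709), and Nppb was at least 2.95-fold higher (0.0064), on 1 of its 2 probes. Markers of other cell types changed over the same time in EN: 8 of 12 sensory neuron, 5 of 6 motor neuron, 3 of 5 sympathetic neuron, 5 of 7 spinal interneuron and 3 of 4 mast cell markers fell and none of them rose, and 4 of 4 macrophage markers rose. Of the remaining lists, 1 of 8 Schwann cell markers rose, 1 of 4 endothelial markers fell, and of 4 satellite glia markers 2 rose and 2 fell. Their part in the members' changes was not tested.

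By 1W 5 members had fallen in EN (5.67% of all probes had) and Nppb had risen (6.25%): Tac1 fell by 3.81, Npy fell by 3.74, Calca fell by 3.68, Adcyap1 fell by 3.42 and Gal fell by 1.35. Between 1W and 3W and between 3W and 5W no member was called in EN (11.7% and 1.12% of all probes were). All 3W arrays were on slide 4, which held no P0 or 1W array. From 1W to 3W, age and slide thus cannot be told apart. With the slide as a block, the P0 to 5W changes of Calca (-2.91, 0.0871) and Calcb (-2.81, 0.0982) in EN lost their calls, as did Nppb from P0 to 1W (0.0653). Calca and Calcb also lost them without the third P0 EN array or without the first 5W EN array.

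In AN the course was mixed. From P0 to 5W 2 members rose and 2 fell, where 15.2% of all probes rose and 12.7% fell. Tac2 rose by 3.48 ± 0.76 (adjusted p = 0.000833) and Nppb by 1.97 ± 0.57 (0.00773), whereas Npy fell by 1.85 ± 0.60 (0.015) and Gal fell by 1.60 ± 0.40 (0.00254). Calca (-2.20, 0.131), Calcb (-2.63, 0.0742), Tac1 (-1.80, 0.116), Adcyap1 (-1.17, 0.18) and Sst (0.53, 0.534) were not called on their brightest probes. On second probes Adcyap1 fell by 2.14 (0.0488; 2 of 3 5W AN arrays above background) and the dim calcitonin probe of Calca fell by 1.85 (0.00858; 1 of 3). The rise of Nppb rests on its brightest probe. Its second probe, not tested, had AN means of 3.81 at P0 and 4.43 at 5W. On it no P0 AN array and 1 of 3 5W AN arrays were above background. Over the same time in AN 7 of 12 sensory neuron markers fell and 1 rose, 3 of 6 motor neuron markers fell and 1 rose, and 3 of 5 sympathetic neuron, 1 of 7 spinal interneuron, 1 of 4 endothelial and 3 of 4 mast cell markers fell. In AN 2 of 4 macrophage and 5 of 8 Schwann cell markers rose, and of 4 satellite glia markers 2 rose and 2 fell. Their part was not tested here either. The calls in AN depended on single arrays: without the third 3W AN array 7 members were called, with Calca, Calcb and Tac1 added, and without the first 5W AN array 6, with Calca and Calcb added. Npy lost its call without the first P0 or without the third 5W AN array, which left 3 members. With the slide as a block Sst was called (1.63, 0.0312) and Npy was not (-1.01, 0.145). By 1W Npy had already fallen by 2.31 in AN (0.00944; 3.62% of all probes fell), the only member called there. From 3W to 5W none was called in AN (1.68% of all probes). From 1W to 3W no member was called in AN, where 12.6% of all probes were. The 3W slide held no 1W array in AN either, so a slide block links these ages only through 5W arrays. For 1W to 3W in AN, Tac2 was called with the array number as a block over all ages (1.90, 0.0494). No label ties equal numbers of different ages together. With the slide as a block Tac2 (3.90, 0.00716) and Sst (3.07, 0.0105) were called for 1W to 3W in AN. Without the third 3W AN array Calcb fell by 4.53 (0.00331), Calca fell by 3.87 (0.00512), Tac1 fell by 2.75 (0.0123), Adcyap1 fell by 2.02 (0.0265) and Gal fell by 1.58 (0.00271).

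Whether the AN-EN difference itself had changed since birth was tested as an interaction. None of the 9 members was called at 1W, 3W or 5W, where 0.0632%, 0.525% and 0.931% of all probes were. At 5W 5 had an unadjusted p below 0.05 with a fold above 2, as did 4.6% of all probes. With the replicate pairs as a block 4 were called at 5W: the difference grew by 3.41 for Adcyap1 (adjusted p = 0.0287), 3.26 for Sst (0.0301) and 3.12 for Tac2 (0.0367), and by a fitted 3.28 for Npy (0.0124), whose EN was below background at 5W. At 3W the block gave calls for Adcyap1 (3.64, 0.0311) and Npy (fitted 2.70, 0.033). With the slide as a block Sst (0.0254) and Npy (0.0187) were called at 5W. Without the third 5W AN array 4 members (Tac2, Sst, Adcyap1 and Npy) were called there with no block. Without the third 3W AN array, Adcyap1 was called at 5W (0.0462), and Tac1 (4.74, 0.0203), Adcyap1 (3.88, 0.0242) and Calca (4.85, 0.0499) had a larger difference at 1W than at P0. Without the third 1W EN array Npy alone was called at 5W.

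Sensory neuron markers also varied between AN arrays of 1 age. The mean level of 12 such markers was 10.12 to 11.70 in AN and 10.31 to 10.63 in EN at P0, so that the fibres overlapped at birth. At 1W it was 11.02 to 11.33 in AN and 6.97 to 8.36 in EN, with 9 of 12 markers called higher in AN. At 3W AN held 8.59 and 8.80 and, on the third array, 12.28, and EN held 7.15 to 7.82, with 2 markers called, 1 without that array and 4 without the third 5W AN array. At 5W AN held 9.75, 8.82 and 7.10 and EN 6.89 to 7.64, with 1 marker called, Slc17a6, the vesicular glutamate transporter of these neurons, and none without the second AN array. The third 5W AN array was thus near EN in its sensory markers, and it read the lowest of the 12 AN arrays for Calca, Calcb, Tac1, Adcyap1, Npy and Gal and the lowest 5W AN value for Tac2 and Sst, but not for Nppb. The members did not all follow these markers: Npy was lowest and Tac2 between the others on the third 3W AN array, where the markers were highest, and at 5W the markers were highest on the first AN array. The part of neuron content in the differences was not tested.

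Of the 9 tested members 6 (Tac1, Tac2, Sst, Adcyap1, Gal and Npy) had their highest 5W AN value on the second 5W AN array, and Calca, Calcb and Nppb had theirs on the first. On the second array the markers of spinal cord interneurons had a mean level of 9.32 over 7 genes, against 8.29 and 8.09 on the other 5W AN arrays and 6.93 to 7.29 in EN. Of these 7 markers, 3 were called higher in AN at 5W (Gad2, Slc32a1 and Slc6a5, genes of inhibitory transmission), none at P0, 1W or 3W. The other 4 were not called at 5W, with differences of 0.74 for Lmx1b, 0.25 for Pax2, -0.23 for Gad1, also a gene of inhibitory transmission, and -0.30 for Zic1, whose AN arrays were all below the EN arrays. At 3W, where the same 5 members were called as at 5W, the list ran from 8.12 to 8.37 in AN and from 7.51 to 8.11 in EN. Of the 4 satellite glia markers, 2 were called higher in AN at both 3W and 5W (Fabp7 and Kcnj10), and Fabp7 also at 1W (2.39, adjusted p = 0.0145). Of 8 Schwann cell markers 1, S100b, was called lower in AN at P0 (-1.13, 0.000689), and none was called later. The S100b levels were lower in AN without overlap at every age. Of 5 measured sympathetic neuron markers 1 was called at 3W and none at 5W, and none at 3W without the third 3W AN array. Without that array 1 was called higher in AN at 5W (Th). Without the third 5W AN array 2 were called at 3W (Th and Phox2a) and 1 at 5W (Th). Of 6 measured markers of motor neurons, whose axons run in ventral roots, none was called higher in EN at any age. At 1W 3 were called higher in AN (Isl1, Ache and Prph), and at 5W 1 was (Ache). Prph is also on the sensory neuron list, and Chat, Slc5a7 and Slc18a3 were called at no age. No endothelial, macrophage or mast cell marker (4 each) was called at any age. The part of these cell types in the result was not tested.

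**Figure D3:**
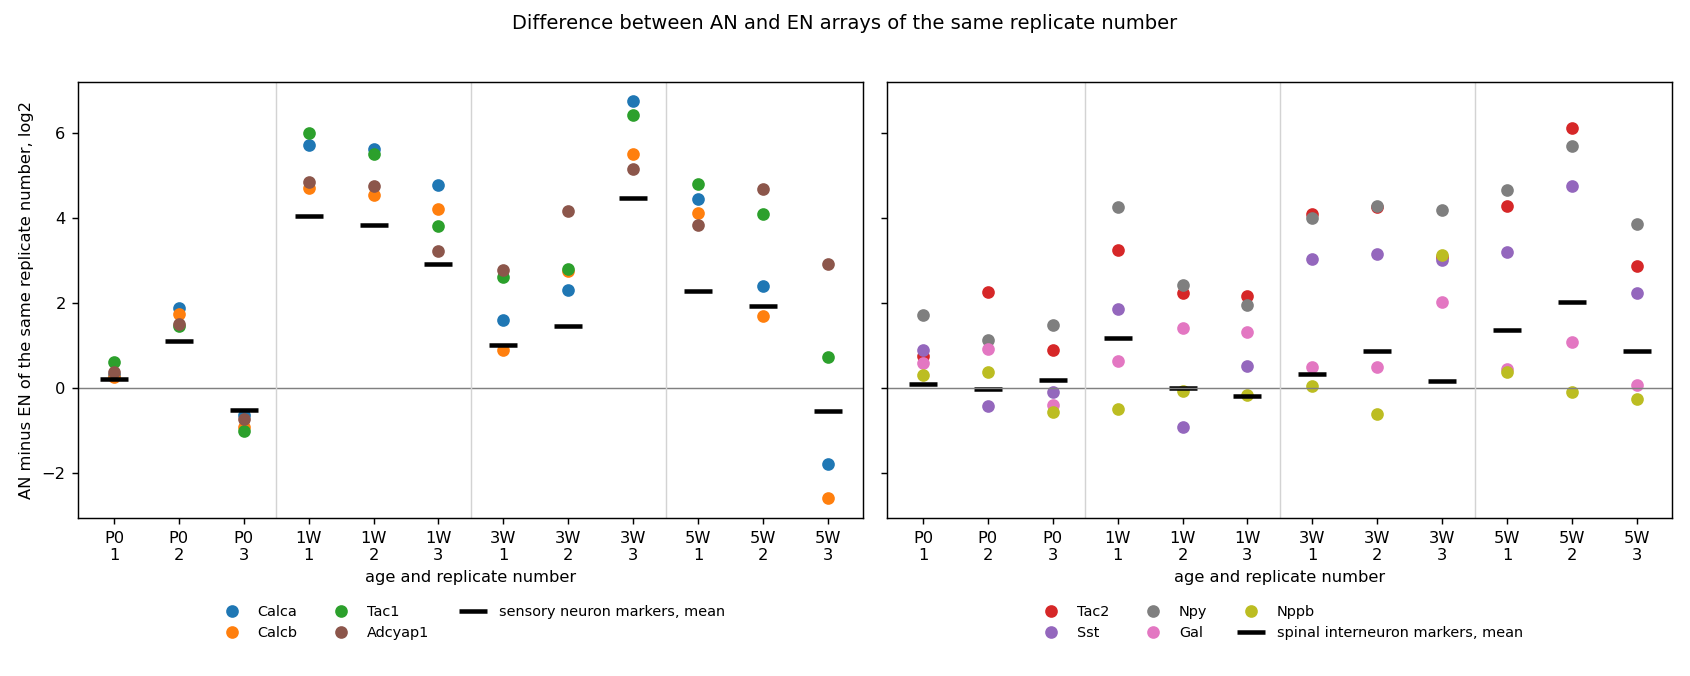
AN minus EN difference (log2) between arrays of the same replicate number, 3 pairs per age; left, Calca, Calcb, Tac1 and Adcyap1 with the mean of 12 sensory neuron markers (black bars), right, Tac2, Sst, Npy, Gal and Nppb with the mean of 7 spinal interneuron markers. In the third 5W pair Calca (-1.77) and Calcb (-2.58) were lower in AN while Tac2 (2.87), Npy (3.86) and Sst (2.24) were still higher.

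Pairs of arrays with the same number, which always shared a slide, are given next for 5W. For Calca the 5W differences were 4.44, 2.39 and -1.77, for Calcb 4.12, 1.69 and -2.58, and for Tac1 4.79, 4.08 and 0.74. For Tac2 they were 4.26, 6.10 and 2.87, for Sst 3.20, 4.75 and 2.24, and for Npy 4.64, 5.68 and 3.86. Both CGRP genes changed direction between pairs, and Tac1, Tac2, Sst and Npy were higher in AN in every pair from 3W on.

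The genes whose levels were most like each member over the 24 arrays are given as a description with no test, the points sharing groups, ages and slides. Calcb was most like Prdm12, Scn10a and Scn11a (r = 0.969, 0.958 and 0.957), of which the latter are sodium channels of nociceptors. Calca was most like D130043K22Rik, Tubb3 and Rasgrp1 (0.982 to 0.977), Tac1 like Cpne6, Cntnap2 and Dync1i1 (0.992 to 0.989) and Adcyap1 like Rab3c, Jph3 and Cntnap2 (0.987 to 0.982). Sst was most like Camkv, Slc12a5 and Pdyn (0.951 to 0.943), Npy like Zcchc12, Nol4 and Cbln1 (0.969 to 0.958) and Tac2 like Hrh3, Phyhip and Dbndd2 (0.941 to 0.911). Gal was most like Gabrb2, Camsap3 and Gap43 (0.954 to 0.949), and Nppb, with lower correlations, like Bcl3, Slc66a2 and Tcea2 (0.885 to 0.872).

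The machinery that cuts and stores peptides was read through 12 genes. Of these, all measured, none was called at P0, 10 were higher in AN at 1W, 6 at 3W and 5 at 5W, and none was lower at any age. Of all probes 0.327% were called at P0, and 2.41%, 2.23% and 2.49% were higher in AN at 1W, 3W and 5W. The median difference, with Pcsk1 at its bound, was 0.38, 2.56, 2.08 and 1.59 at the 4 ages. Scg2, the precursor of secretoneurin, was higher in AN by 4.16 ± 0.75 (SE, adjusted p = 0.00499) at 1W, 4.20 (0.0024) at 3W and, at 5W, 3.85 (0.00385). Chgb, chromogranin B of the granule matrix, was higher by 3.08, 3.31 and 3.14 at these ages. Pcsk1, the first of the prohormone convertases, was at least 6.39-fold higher at 1W (0.00519), at least 3.85-fold at 3W (0.0149) and at least 1.83-fold at 5W (0.023). No EN array was above background at any of the 3 ages, and 2 of 3 AN arrays were at 5W. The 5W bound is under 2-fold, so that call rests on the fitted difference.

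Pcsk2, the partner convertase, was higher by 3.12 (0.017) at 1W and 2.48 (0.0483) at 3W. Chga (3.72, 0.00712) and Cadps, a priming factor of granule release (3.88, 0.00708), were called at 1W alone. Pam, the enzyme that amidates CGRP, substance P and NPY, was the only one of the 12 genes with a mean lower in AN at any age, at -0.65 (0.0618) at 1W and -0.75 (0.0237, under 2-fold) at 3W, and was not called. Without the third 3W AN array the 3W count was 4 (Chgb, Scg2, Scg3 and Cadps2), and without the second 5W AN array the 5W count was 3, with Chgb, Scg2 and Scg3.

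Of 23 other peptide precursors 17 were measured. At P0 none was called, while 1 was higher in AN at 1W (2.41% of all probes were), 2 were at 3W (2.23%), and the count at 5W was 7 (2.49%). The median differences at the 4 ages, bounded genes included, were 0, 0.07, 0.57 and 0.80. Pdyn, the precursor of dynorphins, had means of 9.06 ± 0.29 (SD, n = 3) in AN and 5.63 ± 0.38 in EN at 3W, a difference of 3.43 (adjusted p = 0.0014), and differed by 3.93 (0.000326) at 5W. Penk, the precursor of enkephalins, had nearly equal means at P0 (12.90 and 12.88) and at 1W (10.74 and 11.00), and was higher in AN by 3.02 (0.0012) at 5W. Crh, corticotropin-releasing hormone, was called at 3W (7.98e-06) and 5W (1.1e-06) on its fitted difference, with all 3 AN arrays and no EN array above background. The measured bounds were 1.49-fold at 3W and 1.74-fold at 5W, both under the 2-fold limit of a call.

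Grp, gastrin-releasing peptide, read 8.08 in AN and 9.14 in EN at P0 and 7.79 and 6.10 at 5W, where AN was higher by 1.70 (0.00226). Trh was higher by 2.12 (0.0301) at 5W. Nmb, neuromedin B, was the gene called at 1W (1.91, 0.0106), with differences of 0.85 at 3W and 0.07 at 5W. Of the 7 calls at 5W, 4 were left without the second 5W AN array (Grp, Penk, Pdyn and Crh), the array high in spinal interneuron markers, and without the third there were 10, of which 1, Adm, was lower in AN. Without the second 5W AN array, which enters the shared spread, 4 were called at 3W, with Cck and Penk added.

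**Figure D4:**
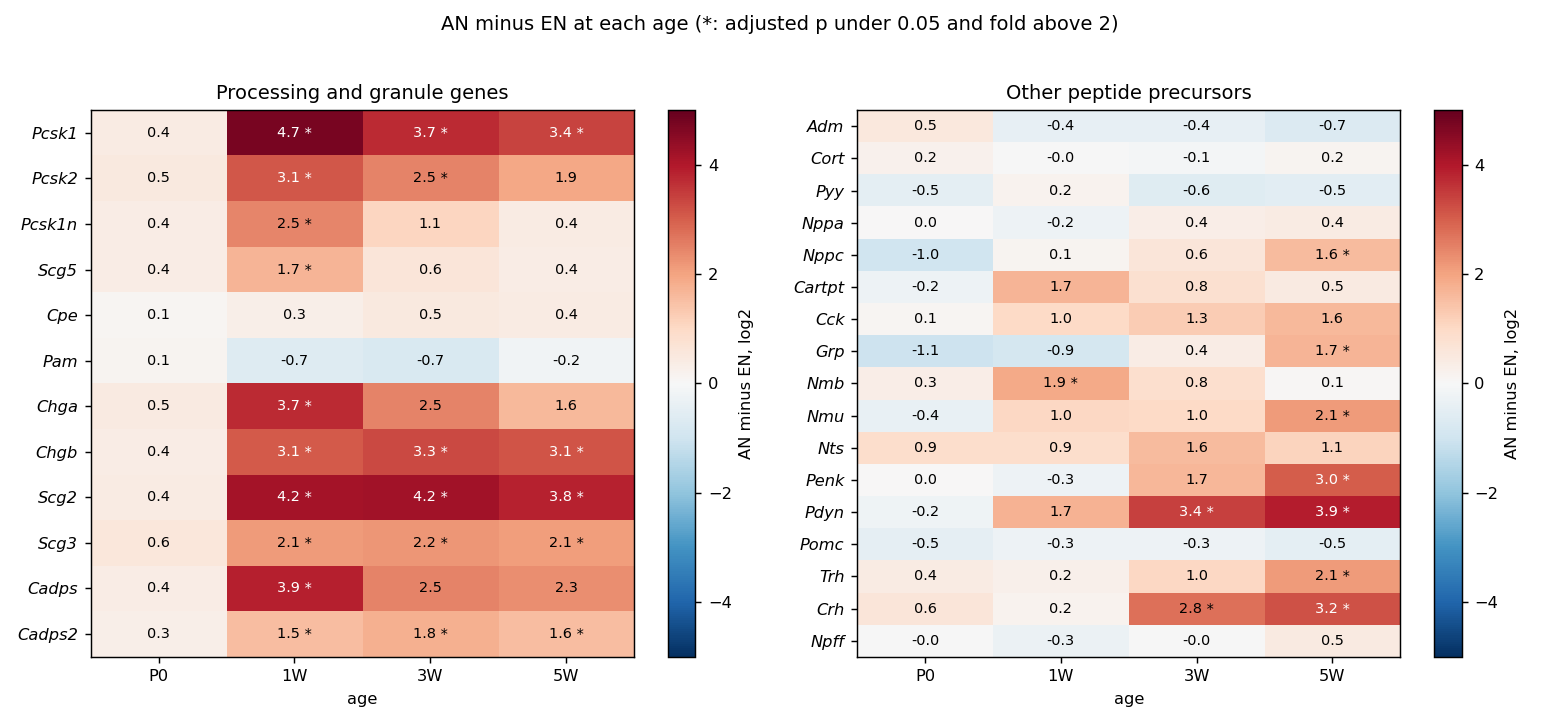
AN minus EN difference (log2; red, higher in AN; blue, higher in EN) at each age for 12 genes of peptide processing and granules and 17 other peptide precursors; stars mark called genes. At P0 no cell is starred; at 1W 10 processing genes but 1 precursor were called, and at 5W 5 and 7; for Pcsk1 and Crh EN was not well above background from 1W on, so that their fitted values are no bound.

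Of the receptors of these peptides and their accessory proteins, 18 of 26 were measured. None was called at P0, 3 were higher in AN at 1W (2.41% of all probes were) and 2 at both 3W (2.23%) and 5W (2.49%), and none was lower. The median difference, bounded genes included, was 0, -0.10, 0.00 and 0.22. Npr3, the clearance receptor of natriuretic peptides, was higher in AN by 1.09 ± 0.22 (SE, adjusted p = 0.00712) at 1W, 1.62 (0.000164) at 3W and 1.39 (0.000541) at 5W. Sstr1, a somatostatin receptor, was higher by 1.89 (0.0218) at 1W, at least 3.47-fold at 3W (7.53e-05) and at least 2.35-fold at 5W (9.05e-05), where 2 of 3 AN arrays were above background. Npy2r, the NPY receptor found on sensory terminals, was at least 2.65-fold higher at 1W (0.0143), and at 5W it was above background in neither fibre.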

How the data were processed

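RNA of 24 samples (8 groups of 3) was hybridised to 1-colour Agilent mouse arrays. The authors deposited spot intensity from Agilent Feature Extraction 10.7.1.1 and 1 table of log2 values of 56743 probes; GeneSpring and quantile normalization are named in their methods. All columns had a median of 6.31 and each correlated best with its own array's log2 intensity, so scale is log2 and genes were not centred. The table was used, without its 138 control probes. The marks for spots well above background came from the intensity files. Groups follow the labels.

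The 36409 probes well above background on all 3 arrays of a group were tested in limma 3.58.1 (R 4.3.3; 8 group means, eBayes, Benjamini-Hochberg). Called means an adjusted p below 0.05 and a fold above 2; the methods do not say whether p was adjusted. Arrays had median signals between 45.4 and 191, with backgrounds of 23 to 46, and the number of arrays limits the precision. Where no array of a group was well above background, the fold is a lower bound, the brighter mean against the higher of the array's lowest signal well above background and the probe's own value. The p value and the call beside a bound are those of the fitted difference. Deviations of same-numbered AN and EN arrays correlated in all 12 pairs (r = 0.107 to 0.646), so the numbers were taken as pairs, from this check and a shared slide. Blocks for pair and slide (4 slides), other normalizations, filters, array weights and left-out arrays were alternatives. A pair lies within 1 age, so for contrasts between ages the replicate block was the array number, shared by all ages. Scripts were tested on simulated data. Named genes were the members, up to 6 list genes per list that were called without overlap of AN and EN, with the largest differences, and the 3 genes most like each member; Pam, Scg3, Cadps2, Adm, Cck and the markers were named after their values were seen. The members and lists were chosen with earlier results of these data known. Probe positions are mm9, as in the files; gene names come from a GRCm38.p6 table. Protein sequences were not used here.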

Additional observations from a re-analysis of the deposited data

Results flagged for a closer look

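The test of the change since birth itself called the fitted AN-EN difference for 4 genes of the receptor and other-precursor lists. No gene of the processing list was called in this test. Of all probes 0.525% were called at 3W and 0.931% at 5W. For Sstr1 it had grown by 3.21 on the fitted log2 scale at 3W (adjusted p = 0.0256) and by 3.08 at 5W (0.0224), with EN below background at both ages; the 3W call was lost without the third 3W AN array (2.81, 0.0546). For Pdyn it had grown by 3.66 at 3W (0.0465; 0.0581 without that array) and by 4.16 at 5W (0.0156). For Crh it had grown by a fitted 2.15 at 3W (0.0137) and 2.56 at 5W (0.00287), with EN below background at both ages. The measured bounds of the AN-EN difference were 1.49-fold at 3W and 1.74-fold at 5W for Crh. For Sstr1 they were 3.47-fold and 2.35-fold. How far the difference of Crh or of Sstr1 grew is thus not measured. For Grp the AN-EN difference had grown by 2.75 at 5W (0.00414), from -1.05 at P0 to 1.70. All of these 7 changes were called with the replicate pairs as a block too. Of 7 spinal interneuron markers 3 were called higher in AN at 5W. In the marker lists the change itself was called for 1 of 4 satellite glia markers, towards AN, at each of 1W, 3W and 5W. At 3W it was called for 2 of 4 endothelial markers, towards EN. The part of such cells was not tested.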

How the results depend on the processing

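The main counts of members called were 0, 5, 5 and 5 for AN against EN at P0, 1W, 3W and 5W, 4 and 8 for 5W against P0 in AN and EN, and 0 for the change of the AN-EN difference from P0 to 5W. With only probes well above background on all 24 arrays, which leaves fewer members to test, the AN against EN counts were 2 (1W), 2 (3W) and 2 (5W), with 1 in AN and 4 in EN over age. At an unadjusted p, 1 was called at P0 and 5 for the change of the difference. That change had 4 calls with the replicate block, 2 with the slide block and 5 without the third 3W and 5W AN arrays together, an alternative chosen after seeing the data. The replicate block added Tac2 between AN and EN at 1W (adjusted p = 0.0158). For the change of the difference from P0 to 3W it added Adcyap1 (0.0311) and Npy (0.033). With the array number as the block over ages, Tac2 was added from 1W to 3W in AN (0.0494). No other call of a member between AN and EN or over age was changed by it. The slide block added Tac2 between AN and EN at 1W (0.0235), Tac2 (0.00716) and Sst (0.0105) from 1W to 3W in AN and Sst from P0 to 5W in AN (0.0312), and lost Calca (0.0871) and Calcb (0.0982) from P0 to 5W in EN, Npy from P0 to 5W in AN (0.145) and Nppb from P0 to 1W in EN (0.0653). Leaving out 1 of the 24 arrays at a time gave 2 to 6 members at 1W, 4 to 6 at 3W, 4 to 5 at 5W, 3 to 7 in AN and 6 to 8 in EN over age, and 0 to 4 for the change of the difference; at P0 it was 0 throughout.

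Signs turned only among differences that were not called. With 1 array left out, the AN minus EN difference at P0 ran from -0.0385 to 0.8245 for Calca, from -0.1066 to 0.7114 for Calcb, from -0.0829 to 0.7624 for Tac1, from -0.4196 to 0.441 for Sst and from -0.0974 to 0.224 for Nppb. It ran from -0.1604 to 1.5033 for Nppb at 3W, and at 5W from -0.1251 to 2.6301 for Calcb and from -0.3743 to 0.2035 for Nppb. Sst from P0 to 5W in AN ran from -0.4214 to 1.3287. The change of the difference ran from -0.4848 to 2.2703 for Calcb, from -0.2135 to 0.5792 for Gal and from -0.4134 to 0.1644 for Nppb. Nppb also turned with array weights at 3W (-0.0191), with scanner signal after quantile normalization at 5W (-5e-04), and in the change of the difference with scaling to the 75th percentile (0.033), normexp (0.0435) and array weights (0.311). The cause was not tested. With no filter on dim probes Calcb at 1W and Tac1 at 5W were not called, and Vip, above background on 1 array, was called from P0 to 5W in AN. With normexp Tac1 at 5W (2.69, 0.0612) and Nppb from P0 to 5W in AN (0.89, under 2-fold) and EN (0.85, 0.0553) were not called. Array weights added Tac2 (0.00183) and Gal (0.00382) at 1W and Calca at 3W (0.0254). Among all alternatives the lowest AN minus EN difference was 2.02 for Adcyap1 at 5W and 1.33 for Npy at 1W. Signal over background limits Vip, Calcb and Npy in EN from 3W on, and also Npy in EN at 1W and Adcyap1 in EN at 5W.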
